A study of Saccharomyces cerevisiae with 8 samples.

Results

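Stable unannotated transcripts (SUTs) of budding yeast are non-coding RNAs that were catalogued because they can be seen in wild-type cells, and their levels were compared across the 4 groups of the study. Every feature whose name is SUT followed by digits was taken, which gave 845 of the 11993 features. Of these, 844 had reads in at least 1 library, 786 had reads in all 8 libraries, 58 in 1 to 7 libraries, and 1 was at 0 throughout. A test was made for 820 SUTs, and the other 25 had a mean density below the filter on low values.

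The study asked whether the decay of cytoplasmic non-coding RNAs depends on translation and on Upf1, and it sequenced total RNA strand by strand from 4 groups with 2 biological replicates each. The groups were mutant cells given cycloheximide (CHX, an inhibitor of translation elongation), written upf1/CHX here, mutant cells given only the solvent DMSO (upf1/DMSO), wild-type cells given CHX (WT/CHX) and wild-type cells given DMSO (WT/DMSO). CHX was given at 100 µg/ml for 15 min, and DMSO in the same volume. All cells were BY4741, a haploid laboratory strain with the alleles MATa, his3Δ1, leu2Δ0, met15Δ0 and ura3Δ0, grown at 30 °C in YPD to an OD600 of 0.5, and the mutant carried upf1*::kanMX4 besides. Whether the 2 mutant cultures came from 1 clone is not given in the sources used here. Each library is a whole culture, so a transcript present in more cells and more of it per cell cannot be told apart.

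SUTs are made by RNA polymerase II, often from the nucleosome-free regions of protein-coding genes, and carry a cap and a poly(A) tail. Cryptic unstable transcripts (CUTs) are removed in the nucleus by the exosome, whereas many SUTs reach the cytoplasm, where the exonuclease Xrn1 degrades capless RNA. The catalogue of XUTs, the Xrn1-sensitive transcripts, therefore overlaps that of the SUTs, and NUTs are transcripts extended when the termination factor Nrd1 is depleted. Nonsense-mediated decay (NMD) needs translation and the helicase Upf1, and it acts on RNAs whose reading frame ends far from the 3′ end.

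The reference holds 9 SUTs with coordinates (RefSeq, build R64), and for 8 of them the length equalled the one recovered from the densities. The 5 below are shown because they are the ones whose densities in every group or in both genotypes are given further on. Of these, 4 are noted as acting in trans. The first ATG frame is in capitals with its stop codon, and each sequence starts at the annotated 5′ end. SUT035 lies on the plus strand of chromosome III at chrIII:205766-205942 and is given whole, and the other sequences are the first 300 bases of SUT125 (plus strand, chrVII:650855-651154), SUT390 (plus strand, chrXVI:52977-53276), SUT532 (minus strand, chrVII:17410-17709) and SUT126 (plus strand, chrVII:660087-660386).
SUT035: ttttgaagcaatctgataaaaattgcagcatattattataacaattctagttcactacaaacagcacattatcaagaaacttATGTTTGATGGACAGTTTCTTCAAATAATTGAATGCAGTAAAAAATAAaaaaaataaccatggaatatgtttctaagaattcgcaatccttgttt
SUT125: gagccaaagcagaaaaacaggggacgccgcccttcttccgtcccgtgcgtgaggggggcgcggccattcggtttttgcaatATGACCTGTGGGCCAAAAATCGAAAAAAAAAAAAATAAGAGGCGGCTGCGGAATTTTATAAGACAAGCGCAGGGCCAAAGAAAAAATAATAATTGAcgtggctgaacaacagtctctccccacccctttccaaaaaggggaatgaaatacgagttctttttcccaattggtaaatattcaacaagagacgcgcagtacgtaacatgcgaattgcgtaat
SUT390: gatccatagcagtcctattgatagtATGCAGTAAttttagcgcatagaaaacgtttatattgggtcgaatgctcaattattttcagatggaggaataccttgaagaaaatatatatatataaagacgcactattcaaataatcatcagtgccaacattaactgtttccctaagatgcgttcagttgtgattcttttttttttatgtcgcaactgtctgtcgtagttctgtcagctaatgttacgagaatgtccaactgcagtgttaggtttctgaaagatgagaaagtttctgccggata
SUT532: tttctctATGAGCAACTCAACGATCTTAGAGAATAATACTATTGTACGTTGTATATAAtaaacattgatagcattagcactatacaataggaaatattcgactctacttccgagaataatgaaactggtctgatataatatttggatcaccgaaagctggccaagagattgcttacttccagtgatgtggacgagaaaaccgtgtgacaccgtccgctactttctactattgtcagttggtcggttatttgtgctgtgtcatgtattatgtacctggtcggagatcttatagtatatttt
SUT126: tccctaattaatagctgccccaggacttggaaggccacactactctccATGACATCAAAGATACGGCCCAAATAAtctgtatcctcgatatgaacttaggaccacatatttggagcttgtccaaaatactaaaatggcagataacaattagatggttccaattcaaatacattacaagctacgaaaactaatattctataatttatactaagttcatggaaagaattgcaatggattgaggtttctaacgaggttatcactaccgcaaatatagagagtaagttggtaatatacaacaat
All 8 SUTs of equal length have a short first frame, and they differ in how much RNA follows its stop. SUT035 is 177 bases long with a first frame of 15 codons and 47 bases after its stop. SUT125 is 305 bases long with a first frame of 31 codons and 128 bases after its stop. SUT390, of 489 bases, has a first frame of 2 codons and 455 bases after its stop. A frame that ends early in a longer RNA leaves most of the transcript behind it, as in the next pair. SUT532, of 497 bases, has a first frame of 16 codons and 439 bases after its stop. SUT126, of 1313 bases, has a first frame of 8 codons and 1238 bases after its stop. Among those not shown, the first frame had 18 codons in SUT053 with 1303 bases after its stop, 38 in SUT418 with 608 bases after it, and 10 in SUT468 with 868 bases after it.

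The libraries held 25.6 and 9.09 M reads (M for 1e+06) in upf1/CHX, 22.1 and 16.3 M in upf1/DMSO, 12.2 and 14.0 M in WT/CHX, and 10.4 and 21.0 M in WT/DMSO. SUTs took 0.693% and 0.687% of the reads in upf1/CHX, 0.647% and 0.628% in upf1/DMSO, 0.546% and 0.524% in WT/CHX, and 0.194% and 0.183% in WT/DMSO. The median SUT had 11 to 91 reads per library, so single SUTs are measured with little precision in the shallow libraries. NAM7, the gene of Upf1, had densities of 0.0373 and 0.0350 in upf1/CHX, 0.0216 and 0.0239 in upf1/DMSO, 1.48 and 1.74 in WT/CHX, and 0.533 and 0.588 in WT/DMSO, which separates the genotypes in every library. LEU2 and URA3 carry deletions in this strain and had 0 to 2 reads.

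A density is a read count divided by the length of the feature on a scale set by the authors. On this scale the small nucleolar RNAs (snoRNAs) have equal median levels in all libraries, within 0.400% of a scaling computed from 76 snoRNAs. Levels of mRNAs were not held equal: the median protein-coding gene was 1.55 log2 units higher in WT/CHX than in WT/DMSO. Changes are given on the deposited scale unless stated, and the counts and main medians of SUTs also after the libraries were rescaled to equal protein-coding genes, called rescaled.

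The median SUT density was 0.103 and 0.117 in the libraries of upf1/CHX, 0.0511 and 0.0563 in upf1/DMSO, 0.0833 and 0.0821 in WT/CHX, and 0.0158 and 0.0162 in WT/DMSO. The 4 groups did not overlap. WT/DMSO stood lowest, and either CHX or the loss of Upf1 went with a higher level. Group means of the library medians were 0.110 ± 0.00942 in upf1/CHX, 0.0537 ± 0.00368 in upf1/DMSO, 0.0827 ± 0.000874 in WT/CHX, and 0.0160 ± 0.000228 in WT/DMSO (SD, n = 2 each). Relative to WT/DMSO, the shift of the median SUT beyond that of the median protein-coding gene was 0.52 ± 0.05 log2 units in upf1/CHX, 0.85 ± 0.04 in upf1/DMSO and 0.42 ± 0.07 in WT/CHX. All 3 values are larger than the spread between replicates.

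**Figure D1:**
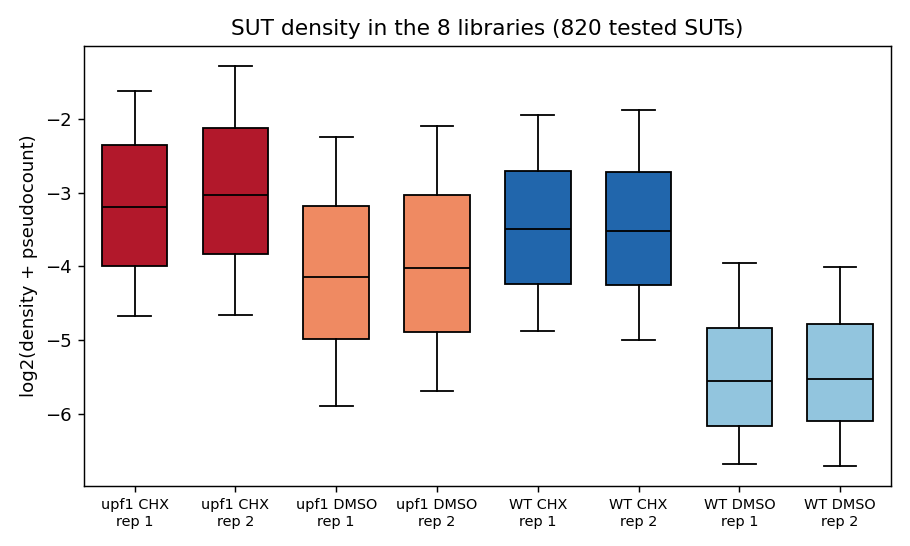
Density of the 820 tested SUTs in each library as log2(density + 0.005488), with boxes for the quartiles, a line for the median and whiskers to the 10th and 90th percentiles; libraries run in the order upf1/CHX, upf1/DMSO, WT/CHX and WT/DMSO. The median density lies at 0.103 and 0.117 in upf1/CHX and at 0.0158 and 0.0162 in WT/DMSO, and the other groups lie between.

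SUT307 had the highest mean density of all SUTs. It is listed between NCW1, a cell wall mannoprotein gene, and PKR1, a gene for assembly of the vacuolar ATPase, on chromosome XIII. Its density was 2.83 and 3.19 in upf1/CHX, 1.43 and 1.43 in upf1/DMSO, 1.97 and 2.05 in WT/CHX, and 0.427 and 0.410 in WT/DMSO. The order of the groups is that of the median SUT, without overlap.

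SUT674, between SFK1 and LPX2 on chromosome XI, had a density of 2.46 and 3.10 in upf1/CHX, 1.24 and 1.59 in upf1/DMSO, 1.70 and 1.83 in WT/CHX, and 0.149 and 0.152 in WT/DMSO. WT/DMSO cells were far below the other groups. SUT228 lies between the cell wall genes PIR1 and PIR3 and had 1.56 and 1.96 in upf1/CHX, 0.818 and 0.924 in upf1/DMSO, 0.844 and 0.896 in WT/CHX, and 0.107 and 0.100 in WT/DMSO. Here upf1/DMSO and WT/CHX overlapped, and WT/DMSO was again far below. SUT802, a transcript of 3281 bases between the iron-uptake genes FIT3 and FRE5, had 1.11 and 1.02 in upf1/CHX, 0.718 and 0.689 in upf1/DMSO, 0.687 and 0.665 in WT/CHX, and 0.129 and 0.133 in WT/DMSO. SUT477, between PCF11 and IVY1, averaged 1.08 ± 0.170 in upf1/CHX, 0.610 ± 0.0613 in upf1/DMSO, 0.794 ± 0.0157 in WT/CHX, and 0.174 ± 0.0575 in WT/DMSO (SD, n = 2 each). In both, WT/DMSO was the lowest group, and in SUT802 upf1/DMSO lay above WT/CHX, unlike the median SUT.

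SUT298 and SUT388 differed little between upf1/DMSO and WT/DMSO on the deposited scale. SUT298, of 73 bases, is listed beside a cluster of snoRNA genes between SEC59 and BUD22, and its density was 1.62 and 1.38 in upf1/CHX, 1.44 and 1.66 in upf1/DMSO, 1.87 and 1.60 in WT/CHX, and 1.65 and 1.51 in WT/DMSO. All 4 groups overlapped on this snoRNA-based scale. After rescaling SUT298 was lower with CHX in WT (−1.40, limma adjusted p = 0.00036) and with CHX in upf1 (−1.26, adjusted p = 0.0013). It was then also lower with upf1 in DMSO (−0.73, adjusted p = 0.0093). SUT388, between MSC6 and GDS1, had 1.69 and 1.90 in upf1/CHX, 0.890 and 0.923 in upf1/DMSO, 2.22 and 2.08 in WT/CHX, and 0.822 and 0.846 in WT/DMSO. It was higher with CHX in both genotypes and close between the genotypes on the deposited scale, where the log2 change with upf1 in DMSO was 0.12 (SE 0.13), against −0.58 after rescaling.

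Cycloheximide in WT cells raised nearly all SUTs on the deposited scale. Of 820 tested, 789 were higher (96.2%) and 0 lower at a limma adjusted p under 0.05, beside 95.0% higher and 0.0769% lower among all 11700 features tested. The count of lower SUTs was also 0 at an unadjusted p under 0.05 and in limma-voom on recovered reads. The median SUT rose by 1.96 log2 units, against 1.69 for all features and 1.55 for protein-coding genes. After rescaling, 496 SUTs were higher and 29 lower, the median SUT was at 0.74 and the median of all features at 0.35, with 44.1% of all features higher and 18.9% lower. The share of SUTs that rose is therefore near the background on the deposited scale and above it after rescaling.

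SUT030, between YCR006C and DFP3 on chromosome III, had a density of 0.160 and 0.176 in WT/CHX and 0.00502 and 0.00339 in WT/DMSO. CHX raised it by 4.17 log2 units (SE 0.19, limma adjusted p = 9.4e-08), the largest increase among the more abundant SUTs. It rested on 80 and 94 reads with CHX, against 4 and 5 with DMSO. SUT060, a transcript of 4209 bases beside YCF1, the vacuolar transporter of glutathione conjugates, had 0.301 and 0.288 in WT/CHX and 0.0156 and 0.0150 in WT/DMSO, a rise of 3.85 (SE 0.17, adjusted p = 6.4e-08). Its groups were separated about as far as those of SUT030 and rested on many more reads.

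SUT342, beside the biotin-precursor transporter gene BIO5, rose by 3.58 log2 units, SUT737, beside the ribosomal protein gene RPS10B, by 3.56, SUT406, beside the transcription factor gene RLM1, by 3.55 and SUT674 by 3.51. Their adjusted p-values were 1.5e-07 or lower in limma. Passing the threshold with groups that do not overlap was a condition for naming them. After rescaling these rises were 2.34, 2.13, 2.09 and 2.00. At the other end, SUT298 had a log2 change of 0.13 (SE 0.15, adjusted p = 0.40), and SUT363, of 81 bases, one of 0.73 (SE 0.44, adjusted p = 0.13) with 0.0751 and 0.211 in WT/CHX and 0.0471 and 0.115 in WT/DMSO. The libraries of SUT363 overlapped and held only 4 to 18 reads, and the change passed the threshold without WT/DMSO replicate 2 (1.33) or without WT/CHX replicate 1 (1.45).

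Cycloheximide also raised SUTs in upf1 cells, by less. Of 820 SUTs, 694 were higher (84.6%) and 3 lower, beside 89.0% of all features higher and 0.231% lower. The median SUT rose by 0.88 log2 units, against 1.08 for all features and 1.14 for protein-coding genes. After rescaling the direction of the median turned: 50 SUTs were higher and 191 lower, with a median of −0.23, while 16.1% of all features were higher and 21.4% lower. In upf1 cells CHX thus left SUTs a little behind the mRNAs. Of the 789 SUTs higher in WT, 682 (86.4%) were also higher in upf1, which is 98.3% of the 694; these comparisons share no library. Over all features tested the same shares were 92.6% and 98.8%, so the overlap of SUTs is not above the background. After rescaling, 42 SUTs were higher in both, 8.47% of 496 and 84.0% of 50, against 29.9% and 82.0% over all features.

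The largest increases in upf1 among the more abundant SUTs were those of SUT030 with 2.86 log2 units, SUT193 with 2.74, SUT060 with 2.46, SUT797 with 2.42, SUT102 with 2.36 and SUT154 with 2.13, all with limma adjusted p-values of 5.5e-06 or lower. SUT193 is listed next to FLO11, the flocculin gene of filamentous growth, and had a density of 0.226 and 0.288 in upf1/CHX, against 0.0287 and 0.0392 in upf1/DMSO. Groups without overlap were a condition for naming these 6 SUTs. SUT797, beside the pyruvate kinase gene PYK2, had 0.365 and 0.368 in upf1/CHX and 0.0708 and 0.0580 in upf1/DMSO. These 6 SUTs remained higher after rescaling, by 1.02 to 1.74.

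SUT485 went the other way. It is listed between SDH6 and ARO10, the phenylpyruvate decarboxylase gene, and had a density of 0.149 and 0.152 in upf1/CHX, against 0.218 and 0.243 in upf1/DMSO. The fall of −0.59 log2 units (SE 0.16, limma adjusted p = 0.0055) stands beside a rise of 1.02 in WT. SUT253 had 0.0702 and 0.0683 in upf1/CHX and 0.0896 and 0.102 in upf1/DMSO, a log2 change of −0.44 (adjusted p = 0.042), which did not pass the threshold when any 1 library was left out (adjusted p = 0.057 to 0.19). SUT022, named after its values were seen, was the third, with 6 and 0 reads in upf1/CHX and 11 and 7 in upf1/DMSO. The reads of SUT485 equal those of XUT1101 in all 8 libraries and the reads of SUT253 equal those of XUT0633, so each pair is 1 measurement under 2 names.

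Loss of Upf1 raised most SUTs in cells that were not treated with CHX. In DMSO, 650 of 820 SUTs were higher in upf1 (79.3%) and 1 was lower, beside 62.0% of all features higher and 0.889% lower. The median SUT was 1.41 log2 units higher, against 0.64 for all features and 0.57 for protein-coding genes. At least 2-fold increases were called for 65.5% of SUTs and 31.7% of all features. After rescaling, 516 SUTs were higher and 29 lower with a median of 0.93, while 31.1% of all features were higher and 20.7% lower with a median of 0.05.

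SUT131, of 449 bases, is listed between SKN1 and THI4, the thiazole synthase gene of thiamine synthesis, on chromosome VII. Its density was 0.459 and 0.421 in upf1/DMSO, against 0.0298 and 0.0299 in WT/DMSO, and the log2 change of 3.66 (SE 0.15, limma adjusted p = 2.7e-07) was the largest among the more abundant SUTs. SUT745, beside KEX2, the gene of the protease that matures α-factor, had 0.307 and 0.336 in upf1/DMSO and 0.0188 and 0.0272 in WT/DMSO, a rise of 3.54 (SE 0.19, adjusted p = 4.4e-07). Both were named for a large change without overlap of the groups, so this separation is no further evidence.

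SUT588, between CHS7 and DSE2, had 0.253 and 0.303 in upf1/DMSO and 0.0186 and 0.0274 in WT/DMSO and rose by 3.33. SUT097, beside BUR6, and SUT059, beside MRX16, each rose by 3.25, and SUT324, of 185 bases beside LAP3, rose by 3.21. After rescaling these 4, SUT131 and SUT745 were higher by 2.68 to 3.07. SUT324 rested on 69 and 53 reads in upf1/DMSO, against 5 and 5 in WT/DMSO. The reads of SUT745 and SUT059 each lay within 5% of those of an XUT in every library.

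Some SUTs showed little difference between the genotypes. SUT293, beside the helicase gene PIF1, had 0.0418 and 0.0273 in upf1/DMSO and 0.0307 and 0.0373 in WT/DMSO, with overlapping libraries and an adjusted p of 1.00 in limma. SUT476, between the histone gene HTA1 and the adenylate kinase gene ADK1, had 0.0721 and 0.0574 in upf1/DMSO and 0.0781 and 0.0533 in WT/DMSO (log2 change −0.01, SE 0.21). SUT797 had 0.0708 and 0.0580 in upf1/DMSO and 0.0724 and 0.0550 in WT/DMSO (log2 change 0.02, SE 0.18). All 3 rose with CHX in both genotypes, by 2.87, 1.70 and 2.14 in WT. After rescaling the same 3 were lower with upf1 in DMSO, by −0.63, −0.67 and −0.64 (adjusted p = 0.046, 0.044 and 0.033). The 1 SUT that was lower, SUT283, named after its values were seen, had 1 and 3 reads in upf1/DMSO and 4 and 8 in WT/DMSO.

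Under CHX the difference between the genotypes was smaller. There the median SUT was 0.40 log2 units higher in upf1, against 0.26 for all features and 0.32 for protein-coding genes. In number, 233 SUTs were higher (28.4%) and 2 lower, beside 16.5% of all features higher and 1.44% lower. This count depended on single libraries: it was 31 without upf1/CHX replicate 2, 48 without WT/CHX replicate 1 and 104 without WT/CHX replicate 2. After rescaling, 90 SUTs were higher and 22 lower with a median of 0.05, while 5.86% of all features were higher and 9.22% lower. Of the 233 SUTs, 227 (97.4%) were also higher in upf1/DMSO, which is 34.9% of the 650; these comparisons share no library. Over all features tested the shares were 96.3% and 25.7%. After rescaling, 88 SUTs were higher in both, 97.8% of 90 and 17.1% of 516, against 94.0% and 17.7% over all features.

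SUT397, beside the polarity gene BEM4, had a density of 0.272 and 0.330 in upf1/CHX, against 0.111 and 0.102 in WT/CHX, and was 1.45 log2 units higher (SE 0.17, limma adjusted p = 0.0013). SUT643, listed between IME1, the regulator that starts meiosis, and RPL43B, had 0.167 and 0.206 in upf1/CHX and 0.0592 and 0.0690 in WT/CHX, a rise of 1.46 (SE 0.21, adjusted p = 0.0028). That the groups do not overlap was a condition for naming these SUTs. SUT363, SUT262, SUT059 and SUT779 were higher by 1.75, 1.56, 1.48 and 1.41, and SUT363 rested on 38 and 16 reads in upf1/CHX, against 4 and 12 in WT/CHX. Its call was lost without WT/CHX replicate 1 (1.04), without upf1/CHX replicate 2 (1.51) and after rescaling (1.36, adjusted p = 0.090), whereas the other 5 stayed past the threshold after rescaling, by 1.02 to 1.18. SUT293 was lower, with 0.152 and 0.181 in upf1/CHX and 0.269 and 0.298 in WT/CHX (log2 change −0.75, SE 0.21, adjusted p = 0.035), a call lost when any 1 of these 4 libraries was left out (adjusted p = 0.088 to 0.14). The other lower SUT, SUT718, named after its values were seen, had 0 and 0 reads in upf1/CHX and 2 and 1 in WT/CHX, which gives no fold.

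The test of the difference itself showed that CHX raised many SUTs by less in upf1 than in WT. The difference of the CHX effects, upf1 minus WT, was lower for 461 of 820 SUTs (56.2%) and higher for 1, beside 25.3% of all features lower and 0.205% higher. Its median was −1.06 log2 units for SUTs, −0.45 for all features and −0.27 for protein-coding genes. Rescaling changed this little: 416 SUTs were lower and 1 higher with a median of −0.91, while 21.6% of all features were lower and 2.46% higher.

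SUT674 had the largest such difference among the more abundant SUTs. CHX changed it by 0.97 log2 units in upf1 (SE 0.17) and by 3.51 in WT (SE 0.17), a difference of −2.53 (SE 0.23, limma adjusted p = 0.00047). SUT131 followed, with 0.61 in upf1 and 3.09 in WT, a difference of −2.49 (SE 0.21, adjusted p = 0.00047). SUT324 and SUT737 had differences of −2.35 each. In all 4 the density in upf1/DMSO was far above that of WT/DMSO. Both DMSO groups enter the difference by which the 4 were chosen, so this is no separate evidence.

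**Figure D2:**
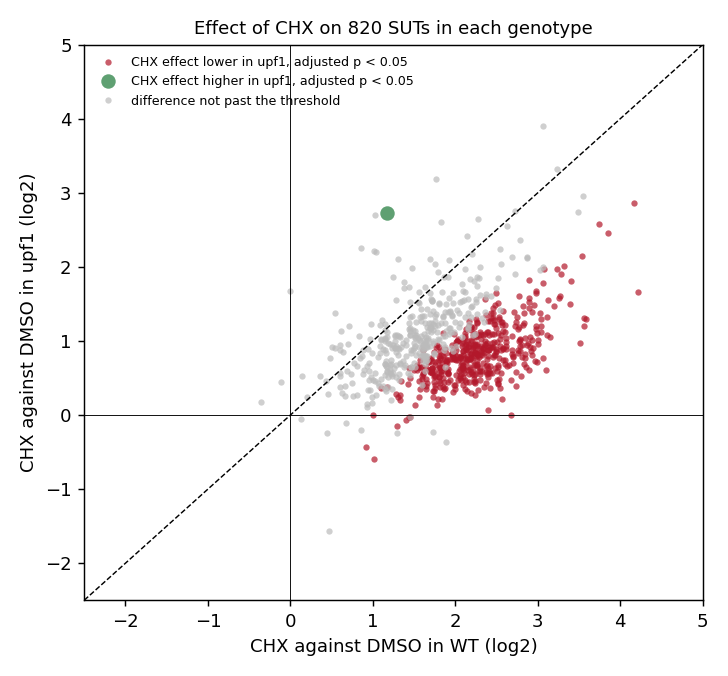
Log2 change with CHX in upf1 (vertical axis) against the change in WT (horizontal axis) for 820 SUTs; red points have a lower CHX effect in upf1 (461), the green point a higher one (1), grey points a difference not past the threshold, and the dashed line marks equal effects. Most points lie below the dashed line, 769 of 820 in number.

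For 769 of the 820 SUTs (93.8%) the CHX change was larger in WT than in upf1, whether or not the difference passed the threshold, beside 87.7% of all features tested. After rescaling it was 732 SUTs (89.3%), beside 64.3% of all features. Across the 820 SUTs the changes in upf1 and WT had a Pearson r of 0.37 and a Spearman rho of 0.32, a description of points that share libraries within each genotype. The 461 SUTs with a lower CHX effect in upf1 had a median length of 1025 bases, against 465 bases for the other 359. They were also the ones with the larger rise in upf1/DMSO, with a median of 1.93 log2 units against 0.69 for the others; that value shares both DMSO groups with the difference and is no separate evidence. The SUT with a higher effect in upf1 was SUT283, whose reads in DMSO numbered 8 or fewer.

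The response to upf1 differed with the length of the SUT. SUTs of up to 409 bases were higher in upf1/DMSO by a median of 0.65 log2 units, those of 410 to 761 bases by 1.16, those of 762 to 1293 bases by 1.71 and longer ones by 1.93. The share called higher was 50.2%, 79.9%, 91.5% and 96.1% in these 4 classes of 207, 209, 199 and 205 SUTs. With CHX the same classes had medians of 0.16, 0.30, 0.48 and 0.58. The change with upf1 in DMSO had a Spearman rho of 0.50 with length over the 820 SUTs, which share their libraries.

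The effect of CHX varied with length in a different way. In upf1 cells it was 1.00, 0.95, 0.83 and 0.80 log2 units over the 4 length classes, and in WT 1.69, 1.85, 2.10 and 2.16. The difference of the CHX effects accordingly had medians of −0.62, −0.88, −1.26 and −1.33. It was called lower for 25.1% of the shortest SUTs and 78.0% of the longest. Within the same limits it was called lower for 32.2% and 74.8% of XUTs and for 22.9% and 13.7% of protein-coding genes. Between the shortest and the longest SUTs the medians lay 1.27 log2 units apart for upf1 in DMSO, 0.42 for upf1 in CHX and 0.48 for CHX in WT. After rescaling, the medians in the 4 classes were 0.22, 0.70, 1.24 and 1.40 for upf1 in DMSO, −0.19, −0.04, 0.11 and 0.22 for upf1 in CHX, −0.09, −0.13, −0.30 and −0.37 for CHX in upf1, and 0.41, 0.64, 0.85 and 0.87 for CHX in WT.

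**Figure D3:**
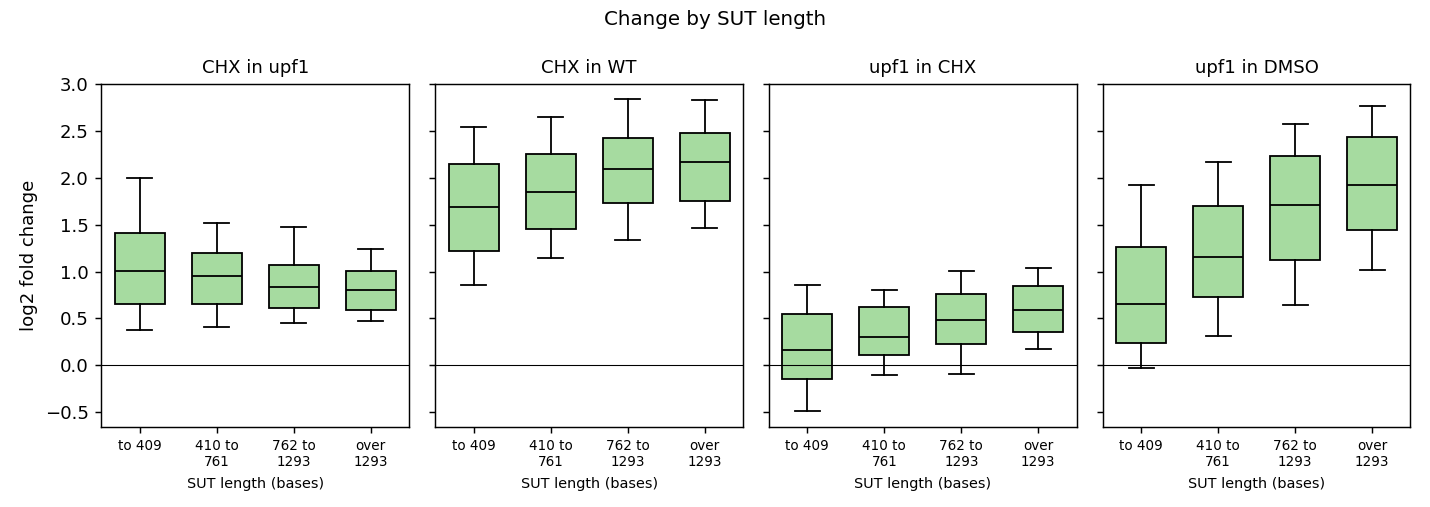
Log2 change of SUTs in 4 classes of length (horizontal axis, bases) for CHX in upf1, CHX in WT, upf1 in CHX and upf1 in DMSO; boxes give the quartiles, lines the median and whiskers the 10th and 90th percentiles. The median change with upf1 in DMSO runs through 0.65, 1.16, 1.71 and 1.93 from the shortest to the longest class, and that with CHX in upf1 through 1.00, 0.95, 0.83 and 0.80.

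Longer SUTs also had more reads, with a median over SUTs of their mean of 16 reads per library among the 205 shortest and 157 among the 205 longest, and precision rises with reads. The pattern was also looked at separately for SUTs below and above the median level in the libraries that the comparison does not use. The level is a density, so at equal level longer SUTs still have more reads, and this split cannot separate length from reads. Among SUTs with the lower level, the median change with upf1 in DMSO was 1.41 in those over 761 bases and 0.79 in shorter ones. Among SUTs with the higher level, it was 2.17 in the longer and 1.32 in the shorter. The gap between the longest and the shortest class, 1.27 log2 units, ranged over 0.96 to 1.43 in the alternatives, rescaling included. Whether overlap with other transcripts has a part in it was not tested.

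By median change, XUTs showed the same order by length, as did CUTs and NUTs over a smaller range, and protein-coding genes did not. The share of protein-coding genes called higher with upf1 in DMSO did rise with length, as given above. With the same limits of length, XUTs changed by medians of 0.97, 1.19, 1.50 and 1.84 log2 units with upf1 in DMSO, and protein-coding genes by 0.67, 0.47, 0.54 and 0.59. CUTs changed by 0.37, 0.41, 0.49 and 0.93, and NUTs by 0.57, 0.61, 0.73 and 0.74. Only 33 CUTs were in the longest class.

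Among the classes, SUTs stood next to XUTs. With upf1 in DMSO the median change was 1.41 log2 units for SUTs and 1.32 for XUTs, and the difference of the CHX effects was −1.06 for SUTs and −1.03 for XUTs. Many of these values are not independent, since features that overlap on a strand were both counted. Of 737 SUTs with at least 80 reads over the 8 libraries, 165 (22.4%) had reads within 5% of those of another feature in every library, 36 of them with identical reads, and an XUT was the partner for 147. Beyond those given above, named SUTs with such a partner were SUT154, SUT193, SUT397, SUT532 and SUT737, with an XUT each. SUT390 and SUT643 had both an XUT and a NUT as partners, and SUT053 had a NUT. No protein-coding gene was such a partner.

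**Figure D4:**
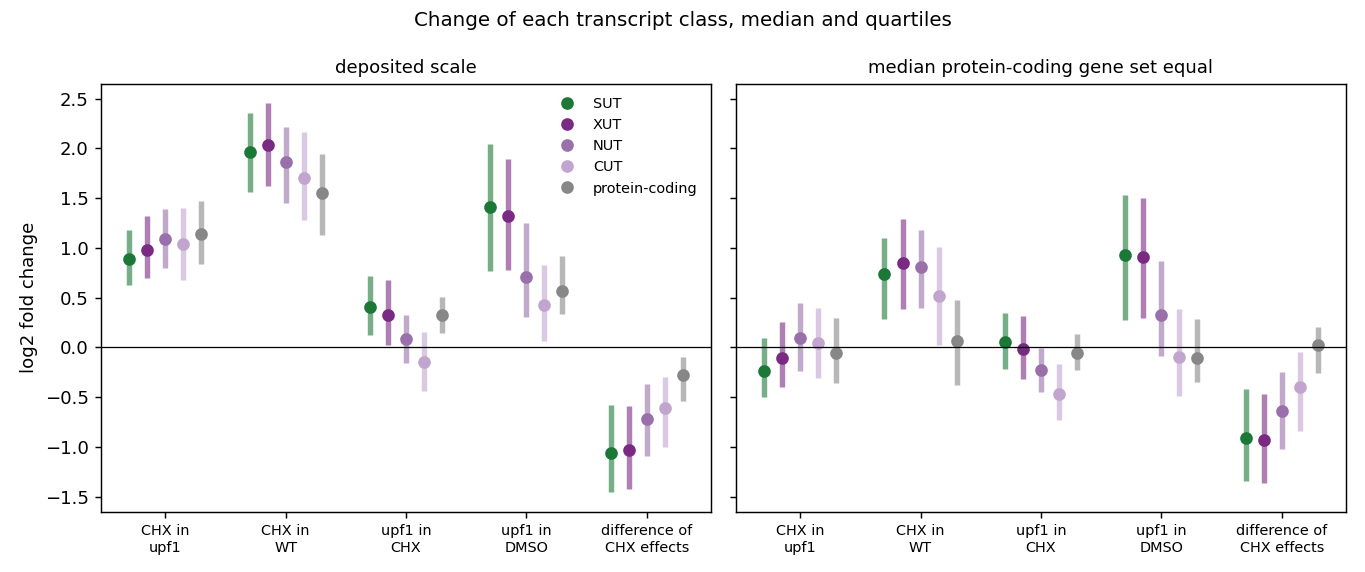
Median log2 change (points) and quartiles (bars) of each transcript class in 5 comparisons, on the deposited scale (left) and after setting the median protein-coding gene equal between libraries (right). SUTs (green) and XUTs lie highest for upf1 in DMSO, at 1.41 and 1.32 on the deposited scale, and lowest for the difference of CHX effects, at −1.06 and −1.03.

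SUTs with a known function or phenotype were not all called higher with upf1 in DMSO, and those not called rested on few reads. SUT457, an intergenic RNA between SYP1 and RPS14A that is known for a role in telomere organisation, had a density of 1.17 and 1.41 in upf1/CHX, 0.603 and 0.585 in upf1/DMSO, 1.19 and 1.07 in WT/CHX, and 0.255 and 0.219 in WT/DMSO. It rose by 1.31 log2 units with upf1 in DMSO (SE 0.15, limma adjusted p = 3.1e-05) and by 2.23 with CHX in WT (SE 0.15, adjusted p = 3.7e-07). With CHX the genotypes were close (0.19, SE 0.15, adjusted p = 0.38).

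SUT719, an antisense transcript known to lower SUR7, the gene of a plasma membrane protein of eisosome sites, had 0.0782 and 0.0897 in upf1/CHX, 0.0165 and 0.0234 in upf1/DMSO, 0.0659 and 0.0609 in WT/CHX, and 0.00359 and 0.00389 in WT/DMSO. It rose by 1.45 with upf1 in DMSO (SE 0.22, limma adjusted p = 0.00019). SUR7 itself had 1.41 and 1.80 in upf1/DMSO and 1.56 and 1.74 in WT/DMSO (log2 change −0.05, SE 0.15, adjusted p = 0.78). The neighbour GAL80, the repressor of the galactose genes, had 0.684 and 0.772 in upf1/DMSO and 0.572 and 0.684 in WT/DMSO. In DMSO, SUT719 was higher in the mutant without a detected difference in SUR7 on this scale. After rescaling SUR7 had a log2 change of −0.75 (limma adjusted p = 0.0029) and GAL80 one of −0.48 (adjusted p = 0.0018), where 31.4% of protein-coding genes were lower. With CHX in WT, SUR7 was higher by 1.45 log2 units (SE 0.15), and its change was −0.08 after rescaling. Any relation between SUT719 and SUR7 was not tested.

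SUT035, SUT125, SUT126 and SUT532 are noted in RefSeq as acting in trans, through transcription factors. SUT126 had 0.129 and 0.147 in upf1/CHX, 0.0667 and 0.0775 in upf1/DMSO, 0.0822 and 0.0945 in WT/CHX, and 0.0145 and 0.0118 in WT/DMSO, and rose by 2.06 log2 units with upf1 in DMSO (SE 0.19, limma adjusted p = 5.4e-06). SUT532, beside the zinc transporter gene ZRT1, had 0.105 and 0.144 in upf1/CHX, 0.0760 and 0.0853 in upf1/DMSO, 0.0490 and 0.0431 in WT/CHX, and 0.0192 and 0.0156 in WT/DMSO, and rose by 1.92 with upf1 in DMSO (SE 0.21, adjusted p = 1.8e-05). The libraries of the genotypes did not overlap in either treatment. With CHX, SUT532 was higher in upf1 by 1.32 (adjusted p = 0.0042), which narrowly missed the threshold without upf1/CHX replicate 2 (1.10). SUT126 was higher by 0.61 with CHX (adjusted p = 0.049), a call lost after rescaling (0.24, adjusted p = 0.31), with the pseudocount divided by 4 (adjusted p = 0.065), without the filter (0.052) and without any 1 library other than upf1/CHX replicate 1 (0.057 to 0.29).

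The short ones were not called higher in the mutant. SUT125, beside the eisosome gene PIL1, had 0.0233 and 0.0260 in upf1/CHX, 0.0108 and 0.0111 in upf1/DMSO, 0.0499 and 0.0468 in WT/CHX, and 0.0125 and 0.0271 in WT/DMSO, with a log2 change of −0.56 for upf1 in DMSO (SE 0.28, limma adjusted p = 0.099) that was −0.99 (adjusted p = 0.016) without WT/DMSO replicate 1 and −1.18 (adjusted p = 0.011) after rescaling. SUT035 had 0.111 and 0.0598 in upf1/CHX, 0.0155 and 0.0144 in upf1/DMSO, 0.0601 and 0.137 in WT/CHX, and 0.0270 and 0.0146 in WT/DMSO, with a log2 change of −0.32 for upf1 in DMSO (SE 0.38, adjusted p = 0.47). These values rest on 3 to 25 reads per library. Both rose with CHX in WT, by 1.15 and 1.92, and after rescaling neither passed the threshold for CHX in WT.

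The other SUTs with RefSeq coordinates all rose with upf1 in DMSO on the deposited scale. SUT390, SUT418 and SUT125 are noted there for better invertase secretion when deleted, and SUT390 had 0.0515 and 0.0642 in upf1/DMSO, against 0.0137 and 0.0169 in WT/DMSO (log2 change 1.61, SE 0.22, limma adjusted p = 1.0e-04). SUT418 had 9 and 10 reads in upf1/DMSO, against 1 and 2 in WT/DMSO (log2 change 1.00, SE 0.27, adjusted p = 0.0087). SUT053 and SUT468, which overlap on opposite strands of chromosome IV, rose by 1.48 (SE 0.18, adjusted p = 3.4e-05) and 0.97 (SE 0.22, adjusted p = 0.0027), and SUT468 was not past the threshold after rescaling (0.48, adjusted p = 0.076). These 2 rose by less than SUT532, and more bases follow their first stop. Any relation of the rises to those bases was not tested. SUT169 rose by 2.45 (SE 0.20, adjusted p = 2.2e-06), and its recovered length of 2097 bases differs from the 984 bases in the reference.

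**Figure D5:**
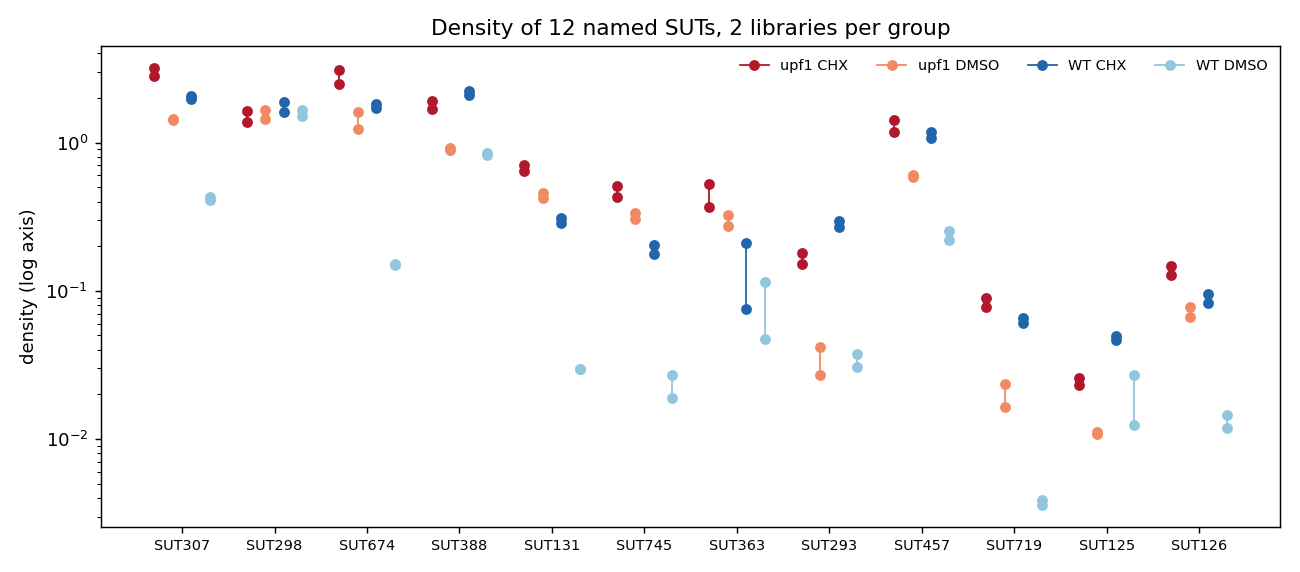
Density (log axis) of 12 named SUTs in the 8 libraries, with the 2 libraries of a group joined by a line and the groups in the order upf1/CHX, upf1/DMSO, WT/CHX and WT/DMSO. SUT674 and SUT131 are far lower in WT/DMSO than in any other group, SUT298 overlaps in all groups, and SUT293 and SUT125 are no higher in upf1 than in WT.

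A list of 21 genes of RNA decay and nuclear termination, among them XRN1, DCP2, the SKI genes, NMD2, UPF3, RRP6 and NRD1, was read beside the SUTs. With upf1 in DMSO 16 of the 21 were higher and 0 lower in limma, beside 66.7% and 0.407% of protein-coding genes. The count of lower genes was also 0 at an unadjusted p under 0.05 and in limma-voom. The median of the 21 was 0.54 log2 units, close to the 0.57 of protein-coding genes. After rescaling 2 were higher and 9 lower, beside 23.3% and 31.4% of protein-coding genes. With CHX all 21 were higher in upf1 and all 21 in WT, as were 95.5% and 97.7% of protein-coding genes. The medians of the 21 were 1.15 and 1.40. After rescaling 6 were higher and 3 lower in upf1, beside 22.1% and 28.8% of protein-coding genes. In WT 6 were then higher and 8 lower, beside 34.9% and 30.7% of protein-coding genes. For the difference of the CHX effects, 0 of the 21 passed the threshold in limma, beside 15.0% of protein-coding genes and 25.3% of all features lower; at an unadjusted p under 0.05 there were 2 lower genes, and limma-voom on recovered reads called 1.

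SUTs of every chromosome took part. The table lists its features in genome order, which places 9 SUTs on chromosome I and 87 on chromosome XVI, and their median change with upf1 in DMSO ranged over the 16 chromosomes with 1.20 on chromosome I and 1.78 on chromosome IX as the extremes. With CHX in WT the extremes were 1.52 on chromosome I and 2.19 on chromosome IX. Chromosome I holds only 8 tested SUTs.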

How the data were processed

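The submitters' processing notes name Trim Galore, HISAT2 (2.2.0), featureCounts (2.0.0), DESeq2 and build R64. They give neither the annotation nor how reads on overlapping features were counted. The table deposited by the authors holds a signal, the normalized read density of each feature, and each library's own column was analysed. Reads were recovered as whole multiples of 1 read for 844 SUTs, within 0.001 reads, which also gave each feature's length. The shortest length that made all values whole was taken, so lengths and reads of SUTs with few reads may be too low. Of the 844 lengths, 811 were 1 more than a multiple of 8, as a tiling array gives, and 61.6% of the read numbers were even. SUTs were placed between genes by the order of rows in the table, where 11 of 6013 reference genes were out of order.

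Densities were tested as log2(density + 0.005488), which understates changes of low SUTs, with limma 3.58.1 (R 4.3.3, moderated test with a trend) over all 11700 features with a mean density at or above the pseudocount, in 1 model of 4 group means with 4 residual degrees of freedom. P-values were adjusted by Benjamini-Hochberg over all these features, with a threshold of 0.05. The fit was also run on simulated data in which few features changed, unlike the CHX comparisons here, so that run does not bear on the calls. DESeq2 and edgeR were not run, and limma-voom on recovered reads was an alternative. Tables and plots were made with Python 3.11.15, pandas 2.3.3 and matplotlib 3.10.9.

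SUTs were named by rule: the 8 with the highest mean density, 6 with described roles, and others by their change. Per comparison, up to 6 with the largest increase and up to 4 with the largest decrease were taken. They had to be past the threshold and at or above the median density of 0.0653 ("more abundant"). The groups compared also had to be without overlap. For the difference of CHX effects up to 4 each way were taken, without the condition on overlap. For CHX in WT and upf1 in DMSO, up to 3 more abundant SUTs nearest to 0 and not past the threshold were added. The members, lists and rules were chosen with earlier results of these data known. Groups and replicate numbers come from the sample titles.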

Additional observations from a re-analysis of the deposited data

Results flagged for a closer look

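The effect of CHX differed between the genotypes by the test of the difference itself: it was lower in upf1 than in WT for 461 SUTs and higher for 1. The 4 named SUTs, by the rule of largest decrease, are listed for the same reason. The difference was −2.53 log2 units for SUT674, −2.49 for SUT131, −2.35 for SUT324 and −2.35 for SUT737. No group had enough libraries for a test of a single outlying one.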

How the results depend on the processing

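With libraries rescaled to equal protein-coding genes, 496 SUTs were higher and 29 lower with CHX in WT, 50 higher and 191 lower with CHX in upf1, 29 lower with upf1 in DMSO, and 90 higher and 22 lower with upf1 in CHX. On that scale single named SUTs turned negative, past the threshold on at least 1 scale: with CHX in WT, SUT125 (−0.14), SUT298 (−1.40), SUT388 (−0.17) and SUT532 (−0.11); with CHX in upf1, SUT125 (−0.035), SUT126 (−0.27), SUT228 (−0.21), SUT307 (−0.15), SUT388 (−0.24), SUT457 (−0.10), SUT477 (−0.39), SUT532 (−0.57), SUT674 (−0.24) and SUT802 (−0.62); with upf1 in DMSO, SUT388 (−0.58) and SUT797 (−0.64). Past the threshold on neither scale, SUT363 turned to −0.72 with CHX in WT and SUT457 to −0.19 with upf1 in CHX, and SUT125 and SUT298 to 0.10 and 0.14 for the difference of CHX effects. The scale itself differs here, by −1.07 to 1.03 log2 units per library. With limma-voom on recovered reads, 791 SUTs were higher with CHX in WT, 722 with CHX in upf1, 646 with upf1 in DMSO and 274 with upf1 in CHX, and 523 had a lower CHX effect in upf1. With the pseudocount multiplied by 4 and divided by 4, 354 and 482 SUTs had a lower CHX effect in upf1, and 286 and 192 were higher with upf1 in CHX. Apart from leaving out libraries, the other shifts beyond 1.5 times were in small counts. SUTs lower with CHX in upf1 numbered 1 in limma-voom. SUTs lower with upf1 in DMSO numbered 2 with the pseudocount divided by 4, 2 without the filter and 0 with a mean of at least 10 reads. SUTs lower with upf1 in CHX numbered 1 with the pseudocount divided by 4, 7 with it multiplied by 4 and 4 without the filter. SUTs with a higher CHX effect in upf1 numbered 0, 2, 3 and 0 with the pseudocount divided by 4, multiplied by 4, no filter and at least 10 reads. Leaving out each library in turn gave 773 to 791 higher and 0 to 1 lower with CHX in WT, 545 to 689 and 1 to 4 with CHX in upf1, 578 to 659 and 0 to 4 with upf1 in DMSO, 31 to 288 and 1 to 10 with upf1 in CHX, and 0 to 3 higher and 345 to 481 lower for the difference of CHX effects. Same-numbered replicates shared only a number, with correlations of −0.02 to 0.08 between their deviations, and with the replicate block 284 SUTs were higher and 8 lower with upf1 in CHX and 3 were higher and 471 lower for the difference of CHX effects. The cause of these shifts was not tested. With 2 libraries per group and 11 to 91 reads for the median SUT, changes of low SUTs are uncertain.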
